A study of Mus musculus with 2 samples.

Results

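CD4 T cells of orthotopic mouse pancreatic tumors were examined in 2 droplet libraries of single-cell RNA sequencing, 1 from mice given PBS and 1 from mice given cmExoaCD11b. The cells were chosen from their own counts of unique molecular identifiers (UMIs). Among barcodes that held 1000 UMIs and 200 genes or more, with mitochondrial UMIs at 20% or less, a member had at least 2 UMIs of the T cell receptor complex (Cd3e, Cd3d, Cd3g, Trac and Trbc2 together), at least 1 UMI of Cd4, and none of Cd8a, Cd8b1, Cd79a or C1qa. MHC class II genes (H2-Aa, H2-Ab1 and H2-Eb1) had to be under 1% of its UMIs, and S100a8 with S100a9 under 3%. The rule found 385 CD4 T cells among 14022 kept barcodes, 138 of 6904 in PBS and 247 of 7118 in cmExoaCD11b.

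Both groups were male C57BL/6J mice, 5 to 6 weeks old when obtained, whose pancreas had been inoculated with K210 tumor cells, a line isolated from a spontaneous pancreatic ductal adenocarcinoma of a genetically engineered mouse with Trp53 fl/fl and the transgene Pdx1-Cre. In those donor mice the Cre recombinase driven by the Pdx1 promoter deleted Trp53 in pancreatic cells, and the recipients themselves carried no such allele. The control mice received PBS by intraperitoneal injection. The treated mice received cmExoaCD11b, exosomes of mouse embryonic fibroblasts that carry cGAMP, which activates STING, together with mRNA for IL-12, and that are coated with an antibody against CD11b, a surface integrin of myeloid cells. Immune cells of 3 mice per group were pooled 2 days after treatment and sequenced as 1 library, so mice cannot be told apart within a library and the treatments could not be tested against each other. Each value below is therefore that of 1 library. Shares of cells carry exact Clopper-Pearson 95% intervals, summed UMIs exact Poisson 95% intervals, and ratios exact conditional 95% intervals, given in parentheses after the ratio. These intervals cover counting error only, not the spread between mice or between preparations.

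CD4 T cells recognize peptides on MHC class II and direct other immune cells through cytokines and surface ligands. Their helper forms are known by the transcription factors and cytokines they use: T-bet and interferon-gamma in Th1, GATA3 and IL-4 in Th2, IL-17 in Th17, and BCL6 and IL-21 in follicular helper (Tfh) cells. Regulatory T cells, which carry FOXP3, hold such responses in check, and in tumors they often express high levels of CTLA-4, CD25 and Helios.

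The 138 PBS members held 897754 UMIs, with a median of 5199 UMIs and 2088.5 genes per cell. The 247 cmExoaCD11b members held 1403282 UMIs, with medians of 4749 UMIs and 1949 genes. Members were thus of similar depth in both libraries, slightly shallower after cmExoaCD11b. Exactly 1 Cd4 UMI, the least the rule allows, was present in 69 PBS and 123 cmExoaCD11b members, 35 and 77 members had 2, and 34 and 47 had 3 or more. A further 9 PBS and 19 cmExoaCD11b barcodes met every other limit but had only 1 UMI of the T cell receptor complex, and 6 and 26 barcodes were left out by the limit on S100a8 and S100a9. A Cd4 UMI was found in 0.76% of PBS and 0.938% of cmExoaCD11b barcodes of a B cell gate (at least 3 UMIs of Cd79a, Cd79b and Ms4a1 together and none of the T cell receptor complex, with a median depth of 4782 and 7008 UMIs), taken here as the background of free RNA. Of the kept barcodes, 15 occurred in both libraries, 0 of them among CD4 T cells of both, and 2 CD4 T cells shared their barcode with a kept barcode of the other library.

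CD4 T cells made up 2.0% of the kept PBS barcodes (1.68% to 2.36%) and 3.47% of the kept cmExoaCD11b barcodes (3.06% to 3.92%). The share in the cmExoaCD11b library was 1.74 times that in PBS (1.4 to 2.15). Other T cells differed by more: T cells with a Cd8a or Cd8b1 UMI and no Cd4 UMI, chosen by the mirrored rule and called CD8 T cells here, went from 143 to 389, a ratio of shares of 2.64 (2.17 to 3.22). T cells with no UMI of either coreceptor numbered 120 and 323. Of these 3 gates together, CD4 T cells were therefore the smaller fraction after cmExoaCD11b, 34.4% in PBS against 25.8%, a ratio of 0.748 (0.605 to 0.929). The direction of the share thus depended on whether it was taken of all kept barcodes or of gated T cells.

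Markers that the rule did not use were set beside CD8 T cells and T cells with no coreceptor UMI. Icos, a costimulatory receptor induced on activated helper T cells, reached 362 and 361 CPM (UMIs of the gene over all UMIs of the cells summed, times 1e6) in PBS and cmExoaCD11b CD4 T cells, against 94.2 and 87.2 CPM in CD8 T cells. Rora, a nuclear receptor of effector and tissue T cells, stood at 620.4 and 489 CPM against 235 and 293 CPM in CD8 T cells. For Ctla4, an inhibitory receptor, the values were 195 and 315 against 125 and 113 CPM. The ratios of CD4 to CD8 T cells in PBS and cmExoaCD11b were 3.84 (3.05 to 4.87) and 4.14 (3.5 to 4.92) for Icos, 2.64 (2.27 to 3.08) and 1.67 (1.5 to 1.86) for Rora and 1.56 (1.23 to 1.97) and 2.8 (2.39 to 3.28) for Ctla4, all with intervals above 1, while Foxp3 was at 0 UMIs in PBS and is described below. T cells with no UMI of either coreceptor had 218 and 212 CPM for Icos, 473 and 495 CPM for Rora, 179 and 172 CPM for Ctla4 and 71.6 and 64.4 CPM for Cd40lg in PBS and cmExoaCD11b. Icos was thus lower there than in CD4 T cells of both libraries, as was Cd40lg, at 168 and 135 CPM in CD4 T cells, whereas Rora in cmExoaCD11b and Ctla4 in PBS were at similar levels in both gates and did not separate them.

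Across all 8532 genes with at least 50 UMIs in the T cells compared, leaving out the genes of the rule, 88 (1.03%) were at least 2-fold higher in CD4 than in CD8 T cells in both libraries and 95 (1.11%) at least 2-fold lower in both. The contrast lies within each library, so its direction was read in both. Tnfsf8, which encodes the ligand of CD30, led the genes higher in CD4 T cells, with 159 UMIs in CD4 against 8 in CD8 T cells of the PBS library and 526 against 22 in the cmExoaCD11b library. Its ratios were 22.8 (11.3 to 53.7) and 37.5 (24.5 to 60.4). Cd40lg, the ligand by which helper T cells license B cells and dendritic cells, followed with 151 UMIs in CD4 against 13 in CD8 T cells of the PBS library and 189 against 1 in the cmExoaCD11b library, ratios of 13.3 (7.56 to 25.6) and 296 (52.6 to 11769). Il10, an immunoregulatory cytokine, had 22 UMIs in CD4 against 0 in CD8 T cells of the PBS library and 84 against 13 in the cmExoaCD11b library. Maf, a transcription factor that drives Il10 and Il4, gave ratios of 8.71 (5.81 to 13.5) and 17.3 (12.8 to 23.9). In PBS and cmExoaCD11b T cells with no coreceptor UMI, Tnfsf8 was at 139 and 140 CPM, against 177 and 375 CPM in members. For Maf the values were 220 and 227 against 228 and 370 CPM, so Maf was at similar levels in both gates in PBS. Rnd3, Olfr60, Podnl1, Asb2, Mast4 and Krt83 completed the 10 highest. These 10 genes were higher in CD4 T cells of both libraries by construction of the ranking. The intervals of the 4 described lay above 1 in each library, which follows from that choice and is a description only.

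The 10 genes lowest in CD4 relative to CD8 T cells included 4 known from cytotoxic lymphocytes. Eomes, a T-box factor of cytotoxic cells, had 1 UMI in CD4 against 35 in CD8 T cells of the PBS library and 2 against 159 in the cmExoaCD11b library. Gzma, a granzyme, had 7 UMIs in CD4 against 620 in CD8 T cells of the PBS library and 193 against 4358 in the cmExoaCD11b library. Klrg1 and Cd160, receptors of effector and cytotoxic lymphocytes, had ratios of 0.0573 (0.00671 to 0.221) and 0.0499 (0.016 to 0.119) and of 0.0681 (0.0244 to 0.154) and 0.0784 (0.0249 to 0.189) in PBS and cmExoaCD11b. Smyd1 and Gm44174 were at 0 UMIs in the CD4 T cells of both libraries, against 46 and 124 UMIs of Smyd1 and 191 and 423 UMIs of Gm44174 in CD8 T cells. In the GENCODE M21 annotation, Gm44174 is a long noncoding RNA gene on chromosome 6 that lies between Cd8b1 and Cd8a, and Smyd1 lies on the other side of Cd8b1 with Krcc1 between them, so both are close to genes that the rule itself used. Gm156, Penk, Adgrg5 and Tcrg-C2 were the other genes among the 10 lowest.

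Between treatments, 6150 genes had at least 50 UMIs over the CD4 T cells of both libraries. Of these, 155 (2.52%) were at least 2-fold higher and 157 (2.55%) at least 2-fold lower in cmExoaCD11b, on a ratio of CPM with 1 UMI added to each sum. The median log2 ratio of all genes was 0.04. The plot of all genes shows that most lay within 2-fold and that the widest ratios came from genes with few UMIs in one of the libraries. Of the 155, 88 reached 50 UMIs only through the cmExoaCD11b library (at their PBS level in both libraries they would have had fewer), and 76 of the 157 only through PBS. Such genes had to differ in order to be measured, so the counts of list members past 2-fold given below are descriptions. Highest in cmExoaCD11b were Il4, Il21, Gzma, Cd200, Egr3, Tox2, Ighg1, Izumo1r, Gpm6b, Areg, Ikzf2, Fhit, Aff3, Lag3 and Kcnq5. Lowest were Ctsk, Lpl, Atp6v0d2, Mmp12, Ccl7, Mmp14, Pf4, Cxcl1, Lmna, Tsc22d1, Nrp2, Thbs1, Spp1, Mt2 and Apoe. Without the cells over 20000 UMIs Nrp2 was left with 3 UMIs in PBS and 7 in cmExoaCD11b, a log2 ratio of 0.26. Without the cells that gave over 0.5% of their UMIs to macrophage genes Cxcl1 was left with 2 and 8 UMIs, a log2 ratio of 0.88, so both turned direction, on few UMIs. Egr3, a transcription factor induced by T cell receptor signals, had 4 UMIs in 4 PBS cells and 72 UMIs in 13 cmExoaCD11b cells, a ratio of 11.5 (4.31 to 43.4). Aff3, a nuclear factor of lymphocytes, had 24 UMIs in 15 PBS cells and 255 UMIs in 69 cmExoaCD11b cells, a ratio of 6.8 (4.47 to 10.8). Egr3 was thus concentrated, with 27 of its cmExoaCD11b UMIs in 1 cell, and Aff3 was spread over more cells.

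**Figure D1:**
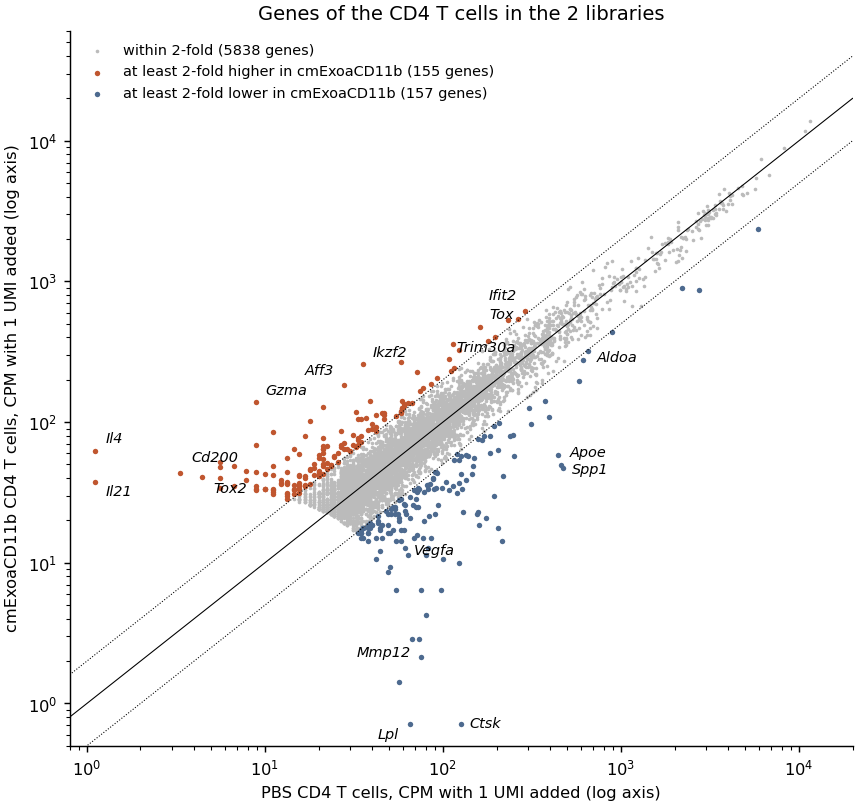
Each point is 1 of the 6150 measured genes, with its CPM in PBS CD4 T cells on the x axis and in cmExoaCD11b CD4 T cells on the y axis (both log axes, 1 UMI added to each sum). The solid line marks equal levels and the dotted lines 2-fold; 155 genes lie above and 157 below the dotted lines, and some genes described in the text are named.

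Among the gene lists, the interferon-stimulated genes had the most members past 2-fold by number, though not by share of those measured. Type I interferon induces them through transcription factors of the STAT and IRF families, and their products restrict viruses or amplify the interferon response. Of 53 genes on the list, 48 were measured, and 13 of these were at least 2-fold higher and 0 at least 2-fold lower, against 2.52% and 2.55% of all genes. Of the 13, 3 (Oas3, Oas1a and Slfn8) reached the minimum of 50 UMIs only through cmExoaCD11b. The median log2 ratio was 0.73, a 1.66-fold higher level, and 46 of 48 lay above the median of all genes. Their summed level went from 8794 CPM in PBS to 13171 CPM in cmExoaCD11b. The difference was spread over cells: the median CD4 T cell devoted 7605 CPM to the list in PBS (quartiles 5363 and 11581) and 10447 CPM in cmExoaCD11b (quartiles 6627 and 17156). The 5 cells with most list UMIs held 16% and 10.1% of them. The quartile ranges of the libraries overlapped.

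Among the members, Oas3 and Oas1a, which make the 2-5A activator of RNase L, had the widest ratios. Oas3 had 8 UMIs in 8 PBS cells and 46 UMIs in 33 cmExoaCD11b cells, 8.91 CPM (3.85 to 17.6) in the PBS library and 32.8 CPM (24 to 43.7) in cmExoaCD11b, a ratio of 3.68 (1.72 to 9.02). Oas1a was at 12.3 CPM (6.12 to 21.9) in the PBS library and 43.5 CPM (33.3 to 55.8) in cmExoaCD11b, a ratio of 3.55 (1.85 to 7.48). Both rested on few UMIs and reached the minimum only through cmExoaCD11b. Their intervals lay above 1, but such genes had to differ in order to be measured, so this is a description only. Trim30a, a ubiquitin ligase induced by interferon, had 96 UMIs in 61 PBS cells and 394 UMIs in 148 cmExoaCD11b cells and a ratio of 2.63 (2.1 to 3.32). Usp18, which removes ISG15 from proteins and damps interferon signaling, gave 2.56 (1.61 to 4.24). Bst2, known as tetherin, which holds budding viruses at the cell surface, had 68 UMIs in 34 PBS cells and 246 UMIs in 108 cmExoaCD11b cells, a ratio of 2.31 (1.76 to 3.07). The IFIT genes, whose proteins bind foreign RNA, were higher together. Ifit2 was at 287 CPM (253 to 325) in the PBS library and 619 CPM (579 to 662) in cmExoaCD11b, a ratio of 2.15 (1.87 to 2.49). Ifit3 gave 2.24 (1.7 to 2.99), and Ifit1 1.72 (1.57 to 1.88).

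The difference was uneven among members. Isg15, the ubiquitin-like modifier that is a common readout of interferon signaling, was already at 1238 CPM in PBS and at 1472 CPM in cmExoaCD11b, a ratio of 1.19 (1.1 to 1.28). Rsad2, which encodes viperin, was lower, with 262 UMIs in 31 PBS cells and 267 UMIs in 57 cmExoaCD11b cells and a ratio of 0.652 (0.548 to 0.776). Of the Rsad2 UMIs in PBS, 105 came from 1 cell, and with the highest cell of each library left out the log2 ratio was -0.16. Interferon-induced GTPases attack vacuoles of intracellular pathogens and respond to interferon-gamma as well. Their list also held the transcription factor Irf1, its most abundant member. On this list, 4 of 14 measured members were at least 2-fold higher and 0 at least 2-fold lower (all genes, 2.52% and 2.55%). The median log2 ratio was 0.64, and all 14 lay above the median of all genes. Gbp2 and Iigp1 reached the minimum only through cmExoaCD11b. Gbp2 was at 20.1 CPM (11.9 to 31.7) in the PBS library and 59.9 CPM (47.7 to 74.1) in cmExoaCD11b, a ratio of 2.99 (1.78 to 5.28). Iigp1 gave 3.02 (1.56 to 6.43), Gbp7 2.17 (1.58 to 3.01) and Irgm2 2.04 (1.48 to 2.86).

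In CD8 T cells of the same libraries the interferon-stimulated list differed more between treatments, with 39 of 49 measured members at least 2-fold higher, against 4.82% of all genes measured there, and a median ratio of 3.05, against 1.66 in CD4 T cells. Markers of other lineages moved in the same contrast of CD8 T cells: the 9 neutrophil markers, led by S100a9, summed to 2073 CPM in PBS and 4632 CPM in cmExoaCD11b, with 4 of 9 measured at least 2-fold higher, and the 10 macrophage and monocyte markers, led by Lyz2 and with 1 at 0 in both, to 676 and 1206 CPM, with 3 of 5 measured at least 2-fold higher. In CD4 T cells the neutrophil markers summed to 2482 and 2459 CPM, with 1 of 8 measured at least 2-fold higher and 2 lower. Their part in the difference between CD8 and CD4 T cells was not tested. The median log2 ratio of all genes in CD8 T cells was 0.07. In PBS the list summed to 8794 CPM in CD4 and 4722 CPM in CD8 T cells, and 43 of the 48 members measured were higher in CD4 T cells, the exceptions being Bst2, Slfn8, Phf11b, Ms4a4b and Sp100. In cmExoaCD11b the sums were 13171 and 10709.9 CPM, with 18 of the 48 higher and 30 lower in CD4 T cells. In PBS Isg15 was at 1238 CPM in CD4 against 366 CPM in CD8 T cells and Ifit1 at 699.5 against 309 CPM, while Bst2 was at 75.7 against 91.3 CPM. Rsad2 had a CD8 ratio of 6.0 (4.43 to 8.32) against 0.652 (0.548 to 0.776) in CD4 T cells, and these intervals did not overlap. The CD4 value leaned on 1 PBS cell, as given above. Free RNA carried the same genes: in empty droplets (10 to 100 UMIs) Isg15 went from 196 to 426 CPM and Ifit1 from 84.3 to 291 CPM. With free RNA subtracted, the median log2 ratio of the list in CD4 T cells was 0.71.

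**Figure D2:**
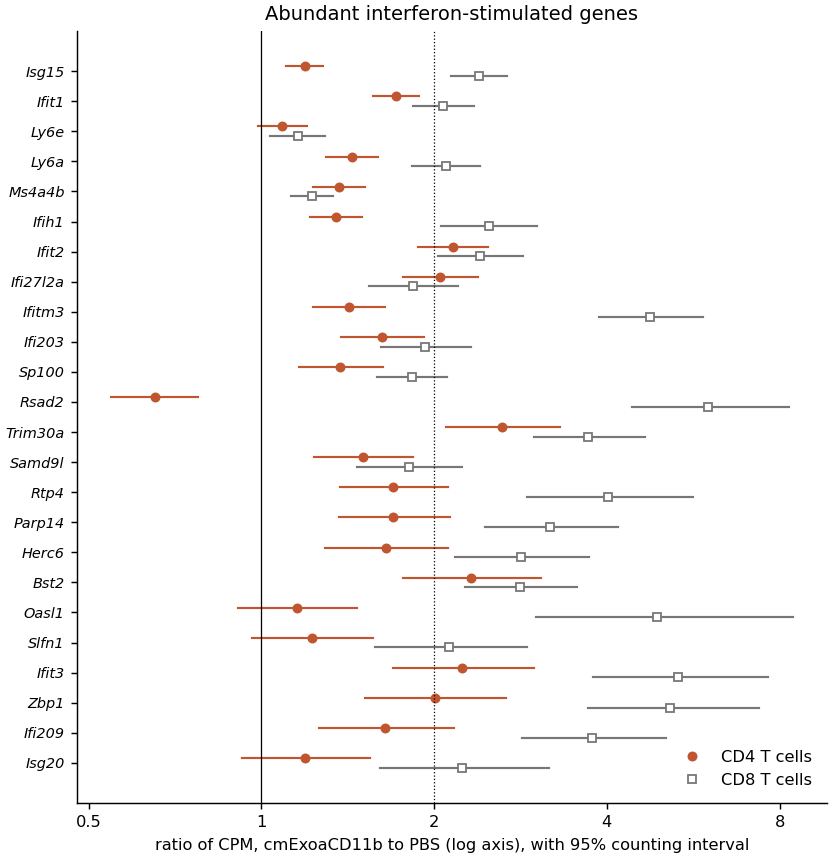
Ratio of CPM, cmExoaCD11b to PBS (log axis), for 24 abundant members of the interferon-stimulated list; filled circles are CD4 T cells, open squares CD8 T cells, and bars 95% counting intervals of 1 library each. Most CD4 ratios lie between 1 and 2 and left of the CD8 ratio, with Ms4a4b and Ifi27l2a as exceptions, and Rsad2 at 0.652 is the only CD4 ratio below 1 among these genes.

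The STAT and IRF factors of interferon signaling recognize a short sequence in promoters. The core of the interferon-stimulated response element, GAAANNGAAA, was searched on both strands (its other strand reads TTTCNNTTTC) in the 250 bases before each gene start in RefSeq's table for build GRCm38.p6. It was found for 3.46% of 27025 genes in that table and for 3.91% of the 4941 measured genes that matched it by symbol. Of the interferon-stimulated list, 39 of 48 measured members had an entry, and 18 of these (46.2%) held the letters. Of the 13 members at least 2-fold higher, 10 had an entry and 9 of these held the letters. The list of GTPases, which also held Irf1, had 9 entries, 8 with the letters, while 0 of 6 entries of the Tfh list held them. A match is a description of the sequence, not a site shown to be bound. The windows below read 5′ to 3′ on the strand of the gene, with 1 match of each gene in capitals. They show the 4 members with the widest ratios and, for contrast, Isg15 and Rsad2, which hold the letters too but had ratios of 1.19 and 0.652.
Oas3 (chr5:120777715-120777744, minus strand): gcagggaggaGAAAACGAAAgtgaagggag
Oas1a (chr5:120907526-120907549, minus strand): tcgggaaatgGAAACTGAAAatct
Trim30a (chr7:104465210-104465239, minus strand): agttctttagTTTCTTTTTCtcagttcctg
Slfn8 (chr11:83020839-83020868, minus strand): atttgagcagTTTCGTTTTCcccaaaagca
Isg15 (chr4:156200865-156200894, minus strand): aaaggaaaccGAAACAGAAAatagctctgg
Rsad2 (chr12:26456553-26456582, minus strand): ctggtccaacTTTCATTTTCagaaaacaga
The matches of Oas3, Trim30a and Slfn8 begin 75, 36 and 48 bases before the gene start. The match in capitals for Isg15 begins 66 bases before its gene start. Isg15 holds 3 matches, Oas1a 2, and Oas3, Trim30a, Slfn8 and Rsad2 1 each. In the windows of Isg15 and Oas1a, a further match overlaps the one in capitals and begins in the lower-case letters before it.

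Several regulatory T cell genes were higher in the cmExoaCD11b library, while Foxp3 itself was sparse in both. Foxp3, the transcription factor that defines the lineage, had 0 UMIs in 138 PBS members, which allows a share of cells with a UMI, not of cells that express the gene, of up to 2.17% by a floor of 3 cells (2.64% by the exact interval), and 14 UMIs in 9 of 247 cmExoaCD11b members, 3.64% (1.68% to 6.8%). By the exact interval this share was at least 1.1-fold higher than in PBS, and 1.68-fold against the floor of 3 cells. The B cell gates had 0 of 263 and 0 of 320 barcodes with a Foxp3 UMI, and CD8 T cells 0 of 143 and 0 of 389. After thinning each member to 1000 UMIs, 0 PBS and 4 cmExoaCD11b members kept a Foxp3 UMI, a difference not detectable at that depth. Foxp3 was present in PBS T cells outside the rule: 4 of 120 T cells without a UMI of either coreceptor held it, against 12 of 323 in cmExoaCD11b, shares of 3.33% and 3.72%. Before the limits on other lineages, 2 of 194 PBS barcodes with T cell receptor complex and Cd4 UMIs carried Foxp3, against 10 of 324. Over all gated T cells the counts were 4 of 401 and 21 of 959, a ratio of 2.2 (0.741 to 8.8), an interval that includes 1.

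Of 29 genes on the regulatory T cell list 18 were measured, and 6 of these were at least 2-fold higher and 0 at least 2-fold lower, against 2.52% and 2.55% of all genes, with a median log2 ratio of 0.59. The 6 were Ikzf2, Izumo1r, Areg, Gzmb, Il2ra and Il10, of which Izumo1r, Areg and Il2ra reached the minimum only through cmExoaCD11b. The median of the list was 0.27, with 5 members at least 2-fold higher, when CPM was averaged over cells, and 0.20, also with 5, without the cells that held a Mki67 or Top2a UMI. The median cell devoted 1924 CPM to the list in PBS (quartiles 1301 and 3491) and 2057 CPM in cmExoaCD11b (quartiles 1056 and 3824), and these ranges overlapped. Ikzf2, which encodes Helios, had 31 UMIs in 15 PBS cells and 360 UMIs in 69 cmExoaCD11b cells, 34.5 CPM (23.5 to 49) in the PBS library and 257 CPM (231 to 284) in cmExoaCD11b, a ratio of 7.43 (5.14 to 11.1). An Ikzf2 UMI was found in 10.9% of PBS and 27.9% of cmExoaCD11b CD4 T cells, and after thinning to 1000 UMIs in 5.07% of PBS and 13.8% of cmExoaCD11b CD4 T cells, a ratio of 2.71 (1.18 to 7.25). The thinned B cell gates held it in 0.38% and 0% of barcodes, and thinned CD8 T cells in 9.79% and 7.97%, above the CD4 share in PBS. Ikzf2 was at 181 and 99.5 CPM in CD8 T cells of PBS and cmExoaCD11b. T cells with no coreceptor UMI had it at 235 and 337 CPM, so it was not particular to CD4 T cells. Izumo1r, folate receptor 4, a surface marker of regulatory and anergic helper cells, had 7 UMIs in 7 PBS cells and 95 UMIs in 38 cmExoaCD11b cells, a ratio of 8.68 (4.05 to 22.2). After thinning, Izumo1r was found in 2.17% of PBS and 3.24% of cmExoaCD11b CD4 T cells, a ratio of 1.49 (0.358 to 8.72), an interval including 1. Il2ra, the high-affinity chain of the IL-2 receptor (CD25), stood at 18.9 CPM (11 to 30.3) in the PBS library and 57.7 CPM (45.8 to 71.7) in cmExoaCD11b, a ratio of 3.05 (1.79 to 5.49). Areg, the repair factor amphiregulin, gave 8.57 (3.5 to 27.3) from 5 and 67 UMIs. Il10 gave 2.44 (1.51 to 4.1), but 37 of its 84 cmExoaCD11b UMIs were in 1 cell. Ctla4 was at a ratio of 1.62 (1.35 to 1.94), found in 42% and 42.9% of cells, and in 13% and 20.2% after thinning, with 3.42% and 2.81% in the thinned B cell gates. Icos and Tnfrsf18 (GITR) lay near 1, at 0.998 (0.867 to 1.15) and 0.974 (0.794 to 1.2).

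**Figure D3:**
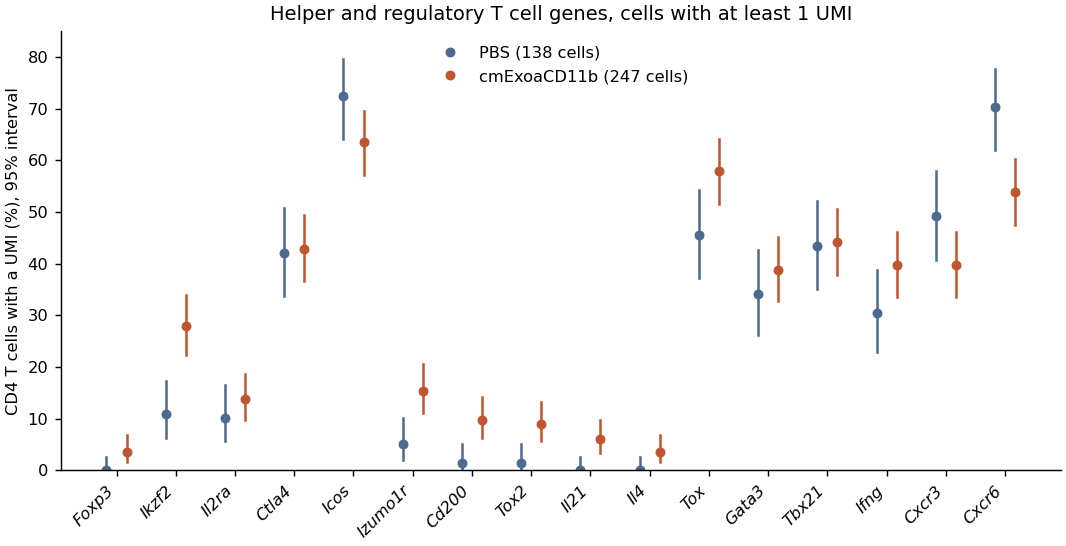
Share of CD4 T cells with at least 1 UMI of helper and regulatory genes (y axis, percent) in PBS (138 cells, blue) and cmExoaCD11b (247 cells, orange), with Clopper-Pearson 95% intervals. Ikzf2, Izumo1r, Cd200, Tox2, Il21 and Il4 are higher in cmExoaCD11b, Foxp3 is at 0 in PBS, and Cxcr6 is lower, at 53.8% against 70.3%.

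The 9 cmExoaCD11b cells with a Foxp3 UMI were compared with the 238 without. No such comparison could be made in PBS, where 0 members had one. The 9 cells were shallower, with a median of 3188 UMIs against 4758.5, and 7 of them held a single Foxp3 UMI. Of 1241 genes with at least 200 UMIs, 143 (11.5%) were at least 2-fold higher in the 9 cells and 170 (13.7%) at least 2-fold lower. Of the regulatory T cell list, 9 members were measured at that depth, of which 7 were at least 2-fold higher and 0 at least 2-fold lower, with a median log2 ratio of 2.11 against 0.07 for all genes. Ikzf2 was found in 9 of the 9 cells with a Foxp3 UMI and 60 of the 238 without, 3101 against 178 CPM, a ratio of 17.4 (13.9 to 21.8). It had 2 UMIs in the Foxp3 cell with fewest and 31 in the one with most. Itgav, the integrin alpha-V chain that helps activate latent TGF-beta, was found in 8 of the 9 cells with a Foxp3 UMI and 89 of the 238 without, a ratio of 14.3 (11.6 to 17.6). Ctla4 was found in 8 of the 9 cells with a Foxp3 UMI and 98 of the 238 without, a ratio of 5.36 (3.98 to 7.09). Tnfrsf4 (OX40), a costimulatory receptor of regulatory and activated cells, was found in 5 of the 9 cells with a Foxp3 UMI and 82 of the 238 without, a ratio of 4.87 (3.42 to 6.76). The deepest of the 9 cells, with 12079 UMIs, held 100 of the 101 Gzmb UMIs, 34 of the 41 Tnfrsf4 UMIs and 36 of the 62 Tank UMIs. Without it the ratios were 22.8 (17.9 to 28.8) for Ikzf2, 15.9 (12.6 to 20) for Itgav and 5.12 (3.55 to 7.18) for Ctla4, but 1.22 (0.487 to 2.55) for Tnfrsf4 and 0.196 (0.00494 to 1.1) for Gzmb, whose intervals included 1. With the 8 cells, 6 of the 9 list members were at least 2-fold higher and 1 (Gzmb) at least 2-fold lower, against 16% and 18.2% of all genes, and the list median was 1.67.

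Tank, Nfat5, Alcam, Bbx, Nrip1, Samsn1, Elf1, Tnfrsf18, Lamc1 and Elovl5 completed the 15 genes with the widest ratio in the Foxp3 cells. Tank, Nrip1 and Elf1 were found in all 9 cells. On the lower side, several genes of effector helper cells and of the interferon response had no UMI in the 9 cells. Ifit2 had 0 UMIs in them and 869 UMIs in 69 of the 238 other cells (29%), and the interval of the ratio reached up to 0.154. That interval counts UMIs and not cells, most of the other cells lacked an Ifit2 UMI too, and the ranking chose the gene. Ifitm3, an interferon-induced membrane protein that blocks virus entry, had 0 UMIs against 606 in 103 cells. Tnfsf8 had 0 against 526 UMIs in 75 cells, and Cxcr6, a chemokine receptor of tissue-resident effector cells, 0 against 378 in 133 cells. Ly6c2, a surface protein of activated T cells, had 0 against 316 in 70 cells. Klf2, a factor for exit from tissues, had 3 against 1028 UMIs. Aff3, Pde3b, Ctsw, Gm8369, Pced1b, Tuba1b and Tyrobp were at 0 in the 9 cells as well, and Grap2 and Gm2682 at 1 and 3 UMIs. The 9 cells held 37725 UMIs together, so a count of 0 was set against a floor of 79.5 CPM, the level of 3 UMIs. The exact interval reaches somewhat higher than this floor.

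**Figure D4:**
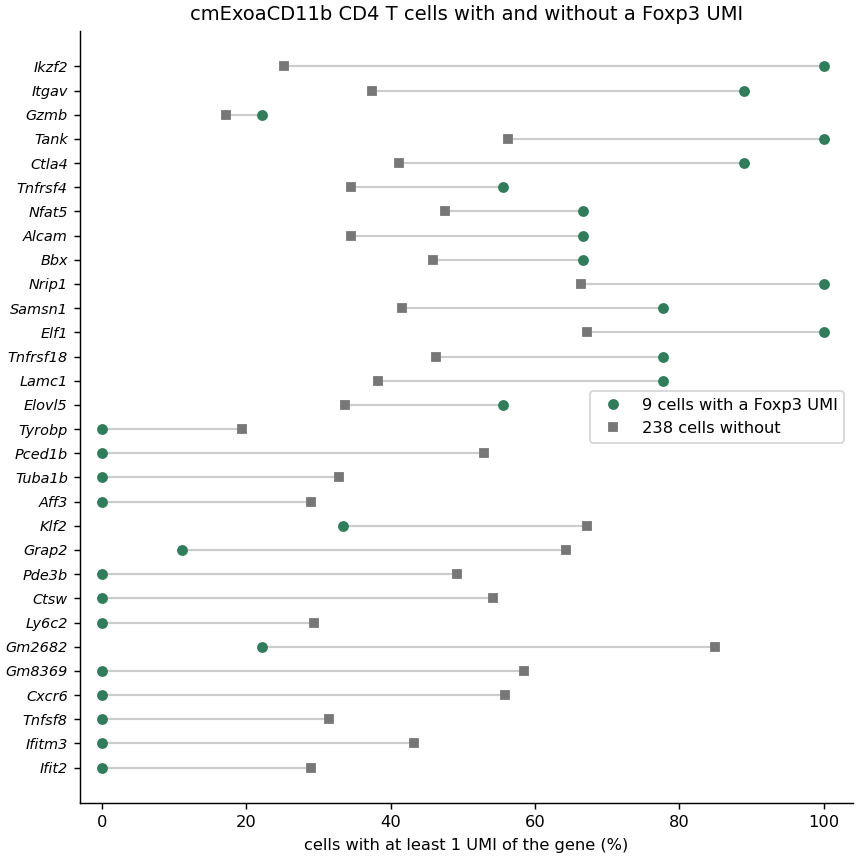
Share of cmExoaCD11b CD4 T cells with at least 1 UMI of each gene (x axis, percent) for the 9 cells with a Foxp3 UMI (green circles) and the 238 without (grey squares), for the 15 genes with the widest ratio in either direction. Ikzf2, Tank, Nrip1 and Elf1 were found in all 9 Foxp3 cells, and genes such as Ifit2, Cxcr6 and Tnfsf8 in none of them.

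Since a Foxp3 UMI was found in only 9 cells, cells with an Ikzf2 UMI were also set beside the others, a split chosen after the values had been seen. There were 15 such cells in PBS and 69 in cmExoaCD11b, with median depths of 5778 and 5413 UMIs against 5148 and 4540.5 in the others. All 9 Foxp3 cells were among the 69. In cmExoaCD11b, Ctla4 was at 514 CPM in cells with and 206 CPM in cells without an Ikzf2 UMI, a ratio of 2.49 (2.06 to 3.03). The PBS ratio for Ctla4 was 1.26 (0.783 to 1.95), an interval including 1. Tnfrsf4 gave 2.79 (2.24 to 3.48) in cmExoaCD11b and 1.28 (0.767 to 2.04) in PBS. Tox, a factor of chronically stimulated and follicular T cells, was higher in Ikzf2 cells of both libraries, with ratios of 2.84 (1.91 to 4.15) in PBS and 3.02 (2.57 to 3.54) in cmExoaCD11b. Ifng pointed the other way in both libraries: it was at 9.94 CPM in cells with and 349 CPM in cells without an Ikzf2 UMI in PBS and at 127 CPM in cells with and 497 CPM in cells without an Ikzf2 UMI in cmExoaCD11b. The PBS value rested on 1 UMI. Its ratios were 0.0285 (0.000719 to 0.16) and 0.255 (0.193 to 0.333). Cxcr6 differed in direction between the libraries, at 1.51 (1.13 to 1.98) in PBS and 0.373 (0.28 to 0.489) in cmExoaCD11b, a difference between libraries that was not tested. Ifit1 was lower in Ikzf2 cells of both libraries, 0.44 (0.30 to 0.624) and 0.523 (0.465 to 0.587), whereas Ifit2 was at 1.29 (0.877 to 1.83) in PBS, an interval including 1, and 0.287 (0.234 to 0.349) in cmExoaCD11b.

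Follicular helper and Th2 genes included the widest ratios among genes higher in cmExoaCD11b. Of the Tfh list, 4 of 8 measured members were at least 2-fold higher and 0 at least 2-fold lower, against 2.52% and 2.55% of all genes, with a median log2 ratio of 1.26. The 4 were Il21, Cd200, Tox2 and Tox, and all but Tox reached the minimum only through cmExoaCD11b, so the count and the median follow in part from the filter. Il21, the cytokine that drives germinal-center B cells, had 0 UMIs in PBS and 52 UMIs in 15 cmExoaCD11b cells, the highest with 12, a level at least 8.7-fold higher by the exact interval (11.1-fold against a floor of 3 UMIs in the PBS library). Cd200, an inhibitory ligand of follicular helper cells, had 2 UMIs in 2 PBS cells and 60 UMIs in 24 cmExoaCD11b cells, a ratio of 19.2 (5.09 to 162). Tox2, which opens chromatin of Tfh genes, had 3 UMIs in 2 PBS cells and 56 UMIs in 22 cmExoaCD11b cells, a ratio of 11.9 (3.88 to 59.7). Tox was more abundant, 144 UMIs in 63 PBS cells and 668 UMIs in 143 cmExoaCD11b cells, a ratio of 2.97 (2.48 to 3.58). Bcl6, the lineage factor itself, did not differ in the same direction, at 244 CPM (213 to 278) in the PBS library and 205 CPM (182 to 229.6) in cmExoaCD11b, a ratio of 0.838 (0.701 to 1.0), and Cxcr5, the receptor that leads cells to follicles, had only 3 and 8 UMIs. Cells with a UMI of Il21, Cd200, Tox2 or Izumo1r were also counted. These 4 genes are among the 15 with the highest ratio between treatments, so a higher share in cmExoaCD11b follows from their choice and is a description only. The shares were 7.25% and 27.9%, and after thinning 2.9% and 9.31%, with 0% and 1.03% of thinned CD8 T cells. The thinned B cell gates stood at 4.94% and 0.938%, above the CD4 share in PBS, and B cells are known to express Cd200. A Bcl6 UMI was found in 47.1% of PBS and 43.7% of cmExoaCD11b CD4 T cells. After thinning the shares were 24.6% and 17.4%, with 17.1% and 13.75% in the thinned B cell gates. In cmExoaCD11b, 42 cells were common to the 69 with one of these genes and the 69 with Ikzf2, 60.9% of each, and 8 of the 9 Foxp3 cells were among the former. In PBS the overlap was 2 cells, of 10 and 15.

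On the Th2 list, 2 of 4 measured members were at least 2-fold higher and 0 lower (all genes, 2.52% and 2.55%). Both, Il4 and Areg, reached the minimum only through cmExoaCD11b, so this count follows in part from the filter. Il4, the Th2 cytokine also made by Tfh cells, had 0 UMIs in PBS and 87 in 9 cmExoaCD11b cells, at least 14.8-fold higher by the exact interval (18.6-fold against 3 UMIs). Of these, 53 UMIs were in 1 cell and 11 in the next, and without the first cell the level was at least 5.68-fold higher. Of the 9 Il4 cells, 6 also held an Il21 UMI and 0 an Ifng UMI. T cells without a coreceptor UMI had 0 Il4 UMIs in PBS and 79 in cmExoaCD11b, but Il21 did not differ in them beyond counting error, with 4 and 9 UMIs, a ratio of 0.819 (0.228 to 3.64), and neither did Cd200, at 0.628 (0.284 to 1.46). Gata3 was at 82.4 CPM (64.7 to 103) in the PBS library and 153 CPM (133 to 175) in cmExoaCD11b, a ratio of 1.86 (1.42 to 2.45), while Il5 and Ptgdr2 were at 0 UMIs in both libraries and the 7 Il13 UMIs were in 1 cmExoaCD11b cell. Th17 genes were near the floor: Il17a had 10 UMIs in 2 PBS cells and 1 in cmExoaCD11b, and Il17f had 7 UMIs in 1 PBS cell. Of the 3 measured Th17 genes, Tmem176b, found in Th17 cells and in myeloid cells, was at least 2-fold lower, at 67.9 CPM (52 to 87.3) in the PBS library and 32.1 CPM (23.4 to 42.9) in cmExoaCD11b, a ratio of 0.472 (0.314 to 0.705), though its log2 ratio was -0.97, under 2-fold, with the highest cell of each library left out.

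IL-12, whose mRNA the exosomes carried, is a cytokine that induces Th1 cells. On the list of Th1 and IL-12 response genes, 0 of 13 measured members were at least 2-fold higher and 0 at least 2-fold lower, close to the share of 2.52% and 2.55% of all genes, with a median log2 ratio of -0.15. Tbx21, encoding T-bet, was at 123 CPM (101 to 148) in the PBS library and 175 CPM (153 to 198) in cmExoaCD11b, a ratio of 1.42 (1.13 to 1.8). Ifng was at 311 CPM (275 to 349) in the PBS library and 366 CPM (335 to 399) in cmExoaCD11b, a ratio of 1.18 (1.02 to 1.37), and was found in 30.4% and 39.7% of cells (14.5% and 19% after thinning, with 0% and 0% in thinned B cell gates). Stat4, the transducer of the IL-12 receptor, gave 1.3 (1.14 to 1.48). The receptor chain Il12rb2 was lower, at 204 CPM (175 to 236) in the PBS library and 146 CPM (127 to 168) in cmExoaCD11b, a ratio of 0.717 (0.584 to 0.88). Cxcr3 and Cxcr6, chemokine receptors of Th1 effector cells, were lower too, with ratios of 0.775 (0.619 to 0.97) and 0.623 (0.54 to 0.72). Ccl5, a chemokine of effector T cells, was at 2917 CPM (2807 to 3031) in the PBS library and 2972 CPM (2882 to 3063) in cmExoaCD11b, within counting error of equal.

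**Figure D5:**
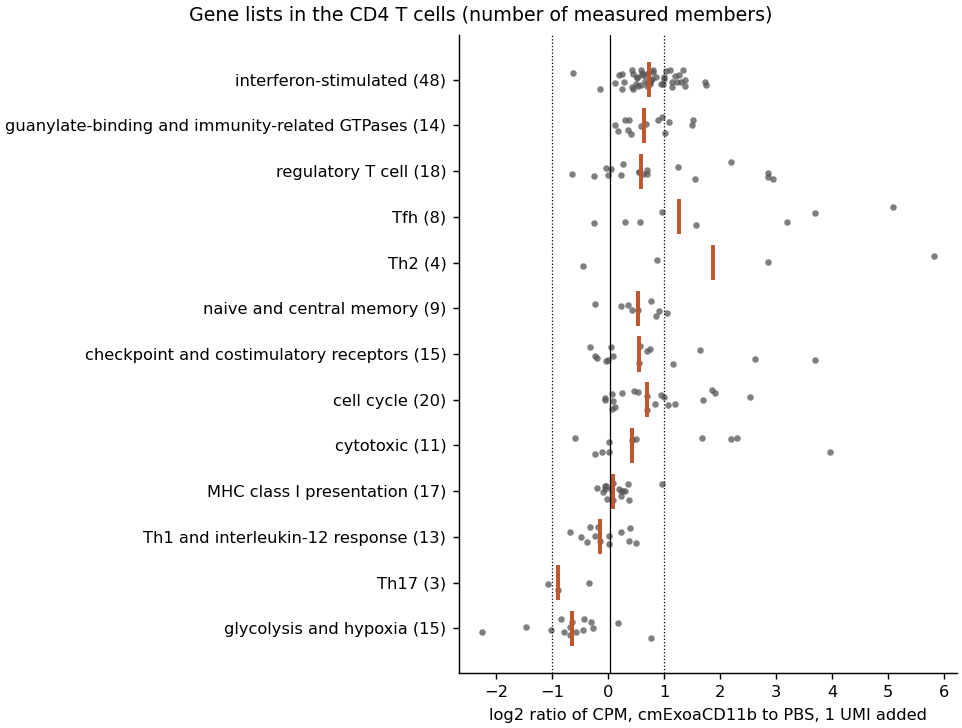
Log2 ratio of CPM, cmExoaCD11b to PBS with 1 UMI added (x axis), for each measured member (grey points) of 13 gene lists, with the list median as an orange bar; vertical position within a list is jitter. The solid line is the median of all 6150 genes and the dotted lines are 2-fold; the interferon-stimulated list is centred at 0.73 and the glycolysis and hypoxia list at -0.64.

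Of the genes of naive and central memory cells, which recirculate through lymphoid organs, 8 of 9 measured members lay above the median of all genes, with a median log2 ratio of 0.53, and 0 of 9 were past 2-fold with CPM averaged over cells. Tcf7, the factor TCF-1 of self-renewing T cells, was at 91.3 CPM (72.6 to 113) in the PBS library and 166 CPM (145 to 189) in cmExoaCD11b, a ratio of 1.82 (1.41 to 2.37). S1pr1, the receptor for exit from tissues, gave 1.92 (1.27 to 2.98), both ratios under 2-fold, whereas Klf2 gave 0.849 (0.773 to 0.933). Ccr7 was under the minimum of 50 UMIs. Of the checkpoint and costimulatory receptors, 4 of 15 measured members were at least 2-fold higher and 0 at least 2-fold lower, against 2.52% and 2.55% of all genes, the 4 being Cd200, Lag3, Btla and Cd27, the first 2 measured only through cmExoaCD11b. The list median was 0.55, but 0.08 with CPM averaged over cells and 0.22 without the cells that held a Mki67 or Top2a UMI. Lag3, an inhibitory receptor that binds MHC class II, had 4 UMIs in 3 PBS cells and 47 UMIs in 22 cmExoaCD11b cells, a ratio of 7.52 (2.75 to 28.7). Btla, an inhibitory receptor for HVEM, had 29 UMIs in 22 PBS cells and 146 UMIs in 56 cmExoaCD11b cells, a ratio of 3.22 (2.15 to 4.98). Cd27, a costimulatory receptor lost on late effector cells, had 35 UMIs in 28 PBS cells and 125 UMIs in 74 cmExoaCD11b cells, a ratio of 2.28 (1.56 to 3.43). Pdcd1, which encodes PD-1, was at 57.9 CPM (43.3 to 76) in the PBS library and 86.9 CPM (72.2 to 104) in cmExoaCD11b, a ratio of 1.5 (1.08 to 2.12). In CD8 T cells Btla and Cd27 had ratios below 1, at 0.602 (0.328 to 1.12) and 0.737 (0.564 to 0.968). Of 17 genes of T cell receptor signaling that the rule did not use, such as Lck and Zap70, 15 lay above the median of all genes and 0 were past 2-fold.

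Proliferation genes were higher in sum, while the share of cells with a Mki67 or Top2a UMI did not differ beyond counting error. Of the cell cycle list, 6 of 20 measured members were at least 2-fold higher and 0 at least 2-fold lower, against 2.52% and 2.55% of all genes, and the median log2 ratio was 0.70. Of the 6, 4 (Ccna2, Ccnb1, Ccnb2 and Cenpf) reached the minimum only through cmExoaCD11b. Mki67, present in all cycling phases, had 23 UMIs in 12 PBS cells and 121 UMIs in 29 cmExoaCD11b cells, a ratio of 3.37 (2.14 to 5.51). Cenpf, a kinetochore protein of dividing cells, had 6 UMIs in 2 PBS cells and 62 UMIs in 14 cmExoaCD11b cells, a ratio of 6.61 (2.87 to 18.7), and Pclaf, a partner of the replication clamp, 28 UMIs in 6 PBS cells and 164 UMIs in 23 cmExoaCD11b cells, a ratio of 3.75 (2.5 to 5.81). That share was 23.2% and 21.9%, a ratio of 0.943 (0.598 to 1.51). After thinning it was 5.07% and 8.1% of CD4 T cells, against 5.32% and 14.4% of the B cell gates, so the thinned CD4 share lay below that of the B cell gate in both libraries. The 5 cells with most list UMIs held 49.5% of them in PBS and 44.6% in cmExoaCD11b. With cells that held a Mki67 or Top2a UMI left out, 0 of the 17 list members that still had a UMI were past 2-fold, a loss that largely follows from choosing the cells by cycling genes, and the list median was 0.25, and among all genes 97 were at least 2-fold higher in place of 155.

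On the list of cytotoxic genes, 4 of 11 measured members were at least 2-fold higher and 0 at least 2-fold lower, against 2.52% and 2.55% of all genes, and Gzma, Klrk1 and Klrd1 of these reached the minimum only through cmExoaCD11b. The list median was 0.43, but -0.00276 with CPM averaged over cells, 0.20 without the cells over 20000 UMIs and 0.11 without the cells that held a Mki67 or Top2a UMI. The median cell devoted 4632 CPM to the list in PBS and 3659.9 CPM in cmExoaCD11b, and the 5 cells with most list UMIs held 23.9% and 23% of them. Gzma had 7 UMIs in 2 PBS cells and 193 UMIs in 18 cmExoaCD11b cells, of which 106 were in 1 cell, a ratio of 17.6 (8.4 to 44.5). Klrk1 and Klrd1, receptor chains of NK and cytotoxic T cells, gave ratios of 5.65 (2.43 to 16.1) and 3.34 (2.0 to 5.88), and Gzmb, granzyme B, 4.68 (3.48 to 6.4). NK markers moved with them: Ncr1, Klrb1c, Klre1, Klra4, Klra8 and Eomes together had 2 UMIs in PBS and 68 in cmExoaCD11b, 2.23 against 48.5 CPM, with Klre1 and Klra8 the most abundant at 0 UMIs in PBS and 19 each in cmExoaCD11b, those of Klra8 in 1 cell. Ncr1 and Klra4 were also at 0 in PBS. In cmExoaCD11b, 5 cells with at least 2 NK marker UMIs held 134 of the 193 Gzma UMIs and 21 of the 53 Klrk1 UMIs, but 4 of the 373 Gzmb UMIs. Their part in the result was measured by leaving them out: without these 5 cells Gzma was at 43.3 CPM in cmExoaCD11b against 7.80 CPM in PBS, Klrk1 at 23.5 against 6.68, Klrd1 at 58 against 20.1 and Gzmb at 271 against 56.8 CPM. The list still had 4 of 11 members at least 2-fold higher.

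The glycolysis and hypoxia list had a median below that of all genes. On this list 0 of 15 measured members were at least 2-fold higher and 3 at least 2-fold lower, against 2.52% and 2.55% of all genes, with a median log2 ratio of -0.64, and 2 of 15 lay above the median of all genes. Bnip3 and Vegfa reached the minimum only through PBS. Without the cells that held a Mki67 or Top2a UMI, 5 were at least 2-fold lower. Vegfa, an angiogenic factor induced by hypoxia, had 54 UMIs in 16 PBS cells and 17 UMIs in 8 cmExoaCD11b cells, a ratio of 0.201 (0.109 to 0.353). Bnip3, a hypoxia-induced mitophagy receptor, gave 0.358 (0.217 to 0.58), and Aldoa, the glycolytic aldolase, went from 648 to 321 CPM, 0.495 (0.436 to 0.56). Gapdh was at 2029.5 CPM (1937 to 2125) in the PBS library and 1366 CPM (1306 to 1429) in cmExoaCD11b, a ratio of 0.673 (0.631 to 0.718), and Pgk1 at 0.56 (0.481 to 0.652). Slc2a3, a glucose transporter, and Hif1a, the hypoxia factor itself, were the 2 above the median of all genes, at 1.73 (1.2 to 2.54) and 1.13 (0.997 to 1.28). In the median cell the list took 4015 CPM in PBS and 3086 CPM in cmExoaCD11b. Free RNA of the same genes was lower too, with Gapdh at 2431 and 1473 CPM and Vegfa at 196 and 87.9 CPM in empty droplets, and its part in the result was not tested beyond the subtraction of free RNA, under which the list median was -0.62.

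The 15 genes with the lowest ratios included several known from macrophages. Ctsk, the protease cathepsin K of osteoclasts and macrophages, had 112 UMIs in 8 PBS cells, 72 of them in 1, and 0 in cmExoaCD11b, at least 46.7-fold lower by the exact interval (58.4-fold against 3 UMIs) and at least 17.4-fold without that cell. Lpl, lipoprotein lipase, had 58 UMIs in 2 PBS cells, both of over 20000 UMIs, and 0 in cmExoaCD11b. Spp1, osteopontin of tumor macrophages, was broader, with 422 UMIs in 50 PBS cells and 65 UMIs in 18 cmExoaCD11b cells, a ratio of 0.0985 (0.0747 to 0.128), and Apoe, a lipid carrier of macrophages, had 410 UMIs in 62 PBS cells and 69 UMIs in 30 cmExoaCD11b cells, a ratio of 0.108 (0.0822 to 0.139). Both were abundant in empty droplets of PBS: Apoe was there at 4009 CPM against 559 CPM in cmExoaCD11b, and Spp1 at 2522 against 447 CPM. For 9 macrophage genes (C1qb, C1qc, Apoe, Lyz2, Csf1r, Adgre1, Ms4a7, Vcan and Spp1), 6 PBS and 5 cmExoaCD11b members devoted more than 0.5% of their UMIs to them, and these cells held 55% and 67.9% of the UMIs of these genes. They were deep, with medians of 14349 and 15787 UMIs against 5165.5 and 4726.5 in the other members. With these cells left out, 140 of the 155 higher and 134 of the 157 lower genes were still past 2-fold. Ighg1, an immunoglobulin gene, was among the highest ratios, with 66 UMIs in 59 cmExoaCD11b cells and at most 2 in any, while its level in empty droplets went from 100.2 to 2103 CPM. With free RNA subtracted, 0 UMIs of it were left in either library.

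Markers of other lineages were summed for each library. The 9 neutrophil markers summed to 2482 and 2459 CPM in PBS and cmExoaCD11b, with 1 of 8 measured at least 2-fold higher (Hdc), 2 lower and a median log2 ratio of 0.28. With free RNA subtracted, by an amount set partly on 4 of these same markers (Retnlg, Csf3r, Cxcr2 and Hdc), 4 were higher and 2 lower, with a median of 1.37. The 5 ILC2 markers, led by Gata3, went from 105 to 229 CPM, with Areg but not Gata3 of the 2 measured past 2-fold, 0 of the 5 at 0 in both libraries, and Kit at 4 and 1 UMI. All but Kit are also genes of the Th2 list, and the part of such cells in the Areg, Gata3 and Il4 values was not tested. The 10 macrophage and monocyte markers summed to 1101 and 900.0 CPM, and the 6 B cell markers to 419.9 and 447 CPM in PBS and cmExoaCD11b, with S100a9, Lyz2 and Igkc the most abundant of the neutrophil, macrophage and B cell lists. The 8 dendritic cell markers summed to 110.3 and 35.6 CPM, led by H2-Aa, with 2 of them at 0 in both libraries. B cell markers had 2 of 6 at 0 in both, and macrophage and monocyte markers 1 of 10. Gamma-delta T cell markers summed to 4.46 and 2.85 CPM, NKT markers to 1.11 and 15.7 CPM, epithelial markers to 4.46 and 7.84 CPM, and erythroid markers to 2.23 and 7.84 CPM. The part of such cells or their RNA in the results was not tested beyond the values given here. For several lists the count past 2-fold was near that of all genes, 2.52% and 2.55% in each direction, so these counts do not set the lists apart. MHC class I presentation genes had 0 of 17 members past 2-fold and a median log2 ratio of 0.09, with B2m at a ratio of 0.945 (0.898 to 0.996). Heat shock and dissociation genes had 0 of 10 past 2-fold (median 0.11), and the STING pathway 0 of 6 measured genes (median 0.07). Ribosomal protein genes had a median log2 ratio of -0.15 over 85 measured genes, 1 of them past 2-fold. Immediate early genes had 0 of 18 and chemokine receptors 0 of 13 past 2-fold, with medians of 0.13 (-0.22 without the cells that held a Mki67 or Top2a UMI) and -0.14. Of the cytokines and their receptors, 4 of 23 were at least 2-fold higher and 0 lower, against 2.52% and 2.55% of all genes, and 3 of the 4 (Il4, Il21 and Il2ra) were measured only through cmExoaCD11b.

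The study named classes of CD4 T cells by marker genes and matched them to its clusters. It reported the Treg and memory clusters as lower and the proliferating cluster as higher after cmExoaCD11b. Here the share of members with a UMI of each set was compared. That is another measure than the share of a cluster, so it is no check of those directions. For Il2rb, Cxcr3 or Gzma (memory) the shares were 73.9% and 70.9%, a ratio of 0.959 (0.747 to 1.24). For Lag3, Pdcd1, Havcr2 or Tigit (exhausted) they were 37% and 36.4%, a ratio of 0.986 (0.692 to 1.42). For Foxp3, Il2ra or Ctla4 (Treg) they were 47.8% and 49%, a ratio of 1.02 (0.753 to 1.4), and 13% and 23.1% after thinning, a ratio of 1.77 (1.03 to 3.19). Of the 66 and 121 cells with a UMI of this set, 58 and 106 held Ctla4, and 0 and 9 held Foxp3. The share of this set thus mostly reads Ctla4 and is not a share of regulatory T cells. All of these intervals at full depth included 1, so these shares did not differ between the libraries beyond counting error, and the treatments were not tested. Thinned shares with a memory marker were 38.4% and 32.4% of CD4 T cells, against 2.66% and 1.88% of the B cell gates, and with an exhaustion marker 7.97% and 13.4% of CD4 T cells, against 0.38% and 0.312% of the B cell gates. For the Treg set the thinned B cell gates stood at 3.42% and 2.81%.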

How the data were processed

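Immune cells from tumors of 3 mice per treatment were pooled into 1 droplet library each, and the authors deposited an unfiltered count matrix per library with 32285 genes, in which each value is a whole-number count of UMIs. The matrix headers name Cell Ranger 7.1.0, the methods of the study name another version, and the genome build was not given in the files. The PBS matrix held 67143628 UMIs and the cmExoaCD11b matrix 81288480. From these counts, barcodes were gated as described, and UMIs were summed over the members of a library and divided by all their UMIs (CPM). No doublet caller was applied to the main set, since the limits on other lineages already leave out part of the mixed barcodes, and removal of the highest Scrublet scores, which took 10 members in PBS and 10 in cmExoaCD11b, was an alternative.

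Each treatment was 1 library, so values have exact counting intervals and no test. PCR copies were collapsed by UMI, and intervals cover counting error only. A gene was counted as different at 2-fold with 1 UMI added to each sum, among genes with at least 50 UMIs (200 for cells with against without a Foxp3 UMI). Shares were also computed after thinning each cell to 1000 UMIs, which left out no member. The genes named are those of 37 lists, the 15 with the largest and smallest ratio between treatments and between cells with and without Foxp3, and 10 in each direction against CD8 T cells. The rule ranked Foxp3 cells over both libraries, but PBS had 0 such cells, so cmExoaCD11b alone was ranked. Some genes and alleles of these data are not reported here. The members, lists and rules were chosen with earlier results of these data known. Alternatives changed the gate, scaling, minimum count, fold, free RNA and single cells. Free RNA was estimated from barcodes with 10 to 100 UMIs. The work used Python 3.11.15, numpy 2.4.6, scipy 1.17.1, pandas 2.3.3, scanpy 1.11.5 and matplotlib 3.10.9, and the script for ratios was tested on simulated data. All deposited columns were assigned, 0 were left out. Promoter sequences are RefSeq's for GRCm38.p6, matched by gene symbol.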

Additional observations from a re-analysis of the deposited data

How the results depend on the processing

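No paired analysis was possible because each treatment was 1 library from a pool of different mice. The ratio of the CD4 T cell share stayed above 1 in the alternatives run except with all gated T cells as the denominator, where it was 0.748. The 155 genes higher and 157 lower by 2-fold became 572 and 482 at 1.5-fold, 50 and 64 at 3-fold, 309 and 365 with at least 20 UMIs, and 75 and 77 with at least 100 UMIs. With Mki67 or Top2a cells left out 97 were higher. The Foxp3 share against the floor of 3 PBS cells was 0.745-fold after thinning to 1000 UMIs. The median log2 ratio of the interferon-stimulated list stayed between 0.64 and 0.83 over its alternatives. Of 1491 values of 88 named genes over 17 settings, 116 moved beyond their interval. Sign changes were counted only for the 57 genes past 2-fold in the main setting, not for those near 1. Among these 57, 2 changed sign: Nrp2 at 0.26 without the cells over 20000 UMIs (3 in PBS and 4 in cmExoaCD11b) and Cxcl1 at 0.88 without the cells over 0.5% macrophage UMIs. Mki67 and Top2a without the cells that held them, Ighg1 with free RNA subtracted and Lpl without Mki67 or Top2a cells or cells over 20000 UMIs had 0 UMIs left and gave no value. Those 2 sign changes' settings, the removal of the deepest Foxp3 cell, the removal of NK marker cells and of the highest cell of each gene were chosen after seeing the data. Averaging CPM over cells kept 106 of the 155 higher and 98 of the 157 lower genes, and leaving out the highest cell of each gene kept 145 and 118. Genes higher in Foxp3 cells of both libraries could not be computed, because PBS had 0 such cells, and with at least 2 Cd4 UMIs the Foxp3 share (0 and 2 cells) was at the floor. The depth of the 9 Foxp3 cells and the 138 PBS cells limits what could be seen of rare transcripts, and the causes of these changes were not tested.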
